A study of Rattus norvegicus with 12 samples.

Results

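Transcripts of 8 enzymes of proline, glycine and cysteine metabolism were followed in hearts of rats given sorafenib or water. Sorafenib is a cancer drug that blocks RAF kinases and receptor tyrosine kinases such as those for VEGF. The genes are Prodh1, Aldh4a1, Pycr1 and Aldh18a1 for proline, Amt, Gldc and Gcsh for glycine, and Cdo1 for cysteine. They are 8 of the 34322 genes counted, were picked by name in the gene tables of both days, and all 8 passed the filter on low counts in each main fit. Under a stricter filter, run as an alternative, Gldc was left out of the fits of single days. The choice was made with their sorafenib values known, so those values are given as a description, without a test.

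The animals were male SD rats of wild-type genotype that weighed 180 to 200 g. Sorafenib at 50 mg/kg, or deionized water of equal volume, was given daily for 14 or for 28 days. The 4 groups of 3 libraries were sorafenib day 14, water day 14, sorafenib day 28 and water day 28, and the series concerns cardiac toxicity and splicing by RBM20. Whether every library stands for its own animal is not stated, so p-values reflect only the variation among these libraries, which may be technical.

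Proline dehydrogenase, encoded by Prodh1, oxidises proline in mitochondria and passes the electrons to the respiratory chain. Aldh4a1 then turns the product, pyrroline-5-carboxylate, into glutamate, while Aldh18a1 and the Pycr enzymes run the opposite way, from glutamate to proline. The glycine cleavage system is a mitochondrial complex that splits glycine and hands its methylene carbon to folate: Gldc, Amt and the lipoyl carrier Gcsh encode its P, T and H proteins, and Dld the shared L protein. Cdo1 oxidises cysteine to cysteine sulfinate, the precursor of taurine, which heart muscle holds in large amounts.

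Library totals ranged from 13746366 to 18534816 counts at day 14 and from 16785038 to 26403196 in 5 libraries of day 28. Sorafenib day 28 replicate 3 held 1036483 counts, so that 1 count there equals 0.825 CPM (read counts scaled to 1 common library size, here with TMM factors over all 12 libraries). The 10 cardiomyocyte markers (such as Myh6, Tnnt2 and Mb) summed to 38970 to 92750 CPM per library and none was at 0. In bulk tissue, fewer cells of a type and less RNA per cell cannot be told apart.

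Promoter sequences of 5 of the 8 genes (Aldh4a1, Pycr1, Amt, Gldc and Gcsh) were found in RefSeq for the rat assembly GRCr8. Those of Amt and Gcsh, partners in 1 complex whose sorafenib fold changes differ in sign, and of Pycr1, a target of the amino acid response, are printed 5′ to 3′ on the gene's strand. Each holds 250 bases before and 50 after the annotated start. The Amt window is chr8:117860187-117860486 on the plus strand, and the windows of Gcsh at chr19:61955558-61955857 and of Pycr1 at chr10:106420763-106421062 are on the minus strand. Capitals mark matches to CCAAT, the CCAAT box, and to TGATGNAA, the core of the amino acid response element, on either strand.
Amt: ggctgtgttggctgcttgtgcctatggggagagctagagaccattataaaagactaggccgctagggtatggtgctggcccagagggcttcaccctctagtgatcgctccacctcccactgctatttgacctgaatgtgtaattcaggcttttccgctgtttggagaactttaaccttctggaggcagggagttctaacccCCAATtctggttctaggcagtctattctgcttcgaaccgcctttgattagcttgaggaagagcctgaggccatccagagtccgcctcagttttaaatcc
Gcsh: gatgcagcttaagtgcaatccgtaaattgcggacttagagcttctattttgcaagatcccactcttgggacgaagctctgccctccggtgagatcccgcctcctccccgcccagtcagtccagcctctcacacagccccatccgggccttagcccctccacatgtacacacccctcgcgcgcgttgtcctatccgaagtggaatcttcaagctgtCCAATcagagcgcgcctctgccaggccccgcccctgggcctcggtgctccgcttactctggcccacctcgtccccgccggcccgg
Pycr1: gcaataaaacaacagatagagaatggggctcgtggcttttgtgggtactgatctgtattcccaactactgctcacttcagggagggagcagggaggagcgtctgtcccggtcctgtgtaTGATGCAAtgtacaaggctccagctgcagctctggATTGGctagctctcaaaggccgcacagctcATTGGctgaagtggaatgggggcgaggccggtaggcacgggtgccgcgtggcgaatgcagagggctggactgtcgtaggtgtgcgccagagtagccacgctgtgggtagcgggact

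The core TGATGNAA matched the Pycr1 window once, at position -131 from the start, and matched no other of these 5 windows. It occurs in 3.98% of all 33469 promoters of the same length. CCAAT, present in 37.49% of them, occurred in Amt at -49, in Gcsh at -35, in Gldc at -224 and, on the opposite strand, at -77, and in Pycr1 at -96 and -66, both on the opposite strand. AGGTCA, a core motif of nuclear receptors found in 16.18%, occurred in Amt on the opposite strand at -124. GGGCGG, the GC box, found in 33.06%, occurred on the opposite strand in Gcsh at -144 and -8 and in Gldc at -97 and -47, and CACGTG, an E-box found in 6.418%, in none of the 5. These motifs do not overlap each other in the printed windows, and a match is a description of letters.

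Levels between genes were set side by side as CPM divided by exon length in kilobases (per kb), averaged over all 12 libraries. Prodh1 led with 34.3 per kb, followed by Gcsh with 25.4 and Aldh4a1 with 22.2. Amt had 7.40 and Aldh18a1 3.50. Cdo1, Pycr1 and Gldc were low, at 1.545, 1.21 and 0.143 per kb. The first glycine cleavage enzyme, Gldc, was thus the rarest of the 8, and its partner Dld, which also serves the pyruvate and 2-oxoglutarate dehydrogenases, was at 171 per kb.

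**Figure D1:**
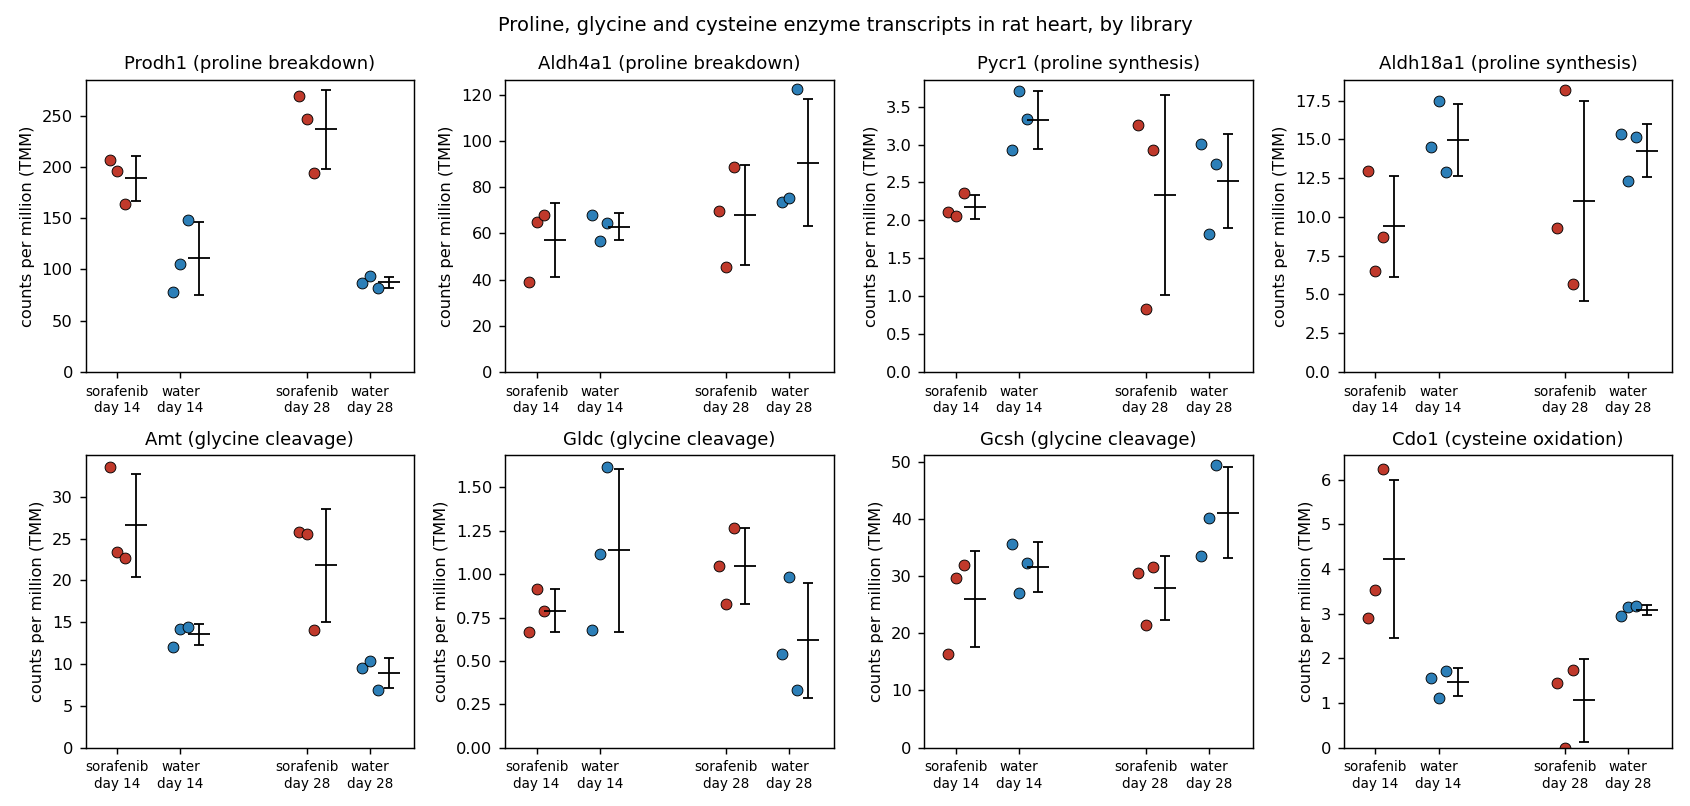
CPM (TMM-scaled, y axis) of the 8 enzyme transcripts in each library, 1 panel per gene, with sorafenib in red and water in blue at each day; points are libraries, horizontal bars means and whiskers SD (n = 3). Prodh1 and Amt are higher in every sorafenib library than in every water library of the same day, and Cdo1 lies above water at day 14 and below it at day 28.

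Prodh1 (chr11:82910043-82927305, plus strand, mRatBN7.2) was higher with sorafenib at both days. At day 14 it had 206, 196 and 164 CPM in sorafenib replicates 5, 6 and 7, against 78.3, 105 and 149 CPM in water replicates 2, 3 and 7. At day 28 it had 269, 247 and 194 CPM in sorafenib replicates 2, 3 and 4, against 87.3, 93.1 and 82.2 CPM in water replicates 2, 3 and 4. The groups did not overlap at either day, although water replicate 7 came close at day 14. The log2 fold change was 0.77 ± 0.22 (SE) at day 14, a 1.71-fold difference, and 1.47 ± 0.18 at day 28, a 2.77-fold difference. Day 28 water libraries were close together, with 87.5 ± 5.47 CPM (SD, n = 3), and the day 14 ones were spread, with 111 ± 35.4 CPM. Without water replicate 7 the day 14 log2 fold change was 1.04, and without water replicate 2 it was 0.56. By level, sorafenib day 28 came before sorafenib day 14, water day 14 and water day 28, and the ranges of neighbours in that order overlapped except between sorafenib and water of day 14.

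Aldh4a1 (chr5:151880002-151905491, plus strand), the next enzyme of proline breakdown, did not follow Prodh1. It had 38.9, 64.9 and 68.0 CPM in sorafenib day 14 replicates 5, 6 and 7, against 68.0, 56.5 and 64.3 CPM in water day 14 replicates 2, 3 and 7. Day 28 levels were 69.6, 45.4 and 88.8 CPM in sorafenib replicates 2, 3 and 4, against 73.8, 75.5 and 122 CPM in water replicates 2, 3 and 4. The groups overlapped at both days, and the log2 fold change was -0.14 ± 0.20 at day 14 and -0.34 ± 0.25 at day 28. At day 14 its sign turned when sorafenib replicate 5 was left out, to 0.08, and it lay between -0.28 and -0.08 without each of the other libraries. At day 28 it was -0.07 without water replicate 4, -0.18 without the shallow library and -0.56 without sorafenib replicate 4.

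Within a library, the ratio of Prodh1 to Aldh4a1 per kb averaged 2.47 ± 1.05 in sorafenib and 1.23 ± 0.403 in water at day 14 (SD, n = 3 each). At day 28 it averaged 2.64 ± 1.12 in sorafenib and 0.711 ± 0.214 in water. Sorafenib libraries spanned 1.67 to 3.67 at day 14, against 0.795 to 1.60 in water, and 1.51 to 3.75 at day 28, against 0.464 to 0.852 in water. The ratio was therefore separate between the groups at both days, with the narrowest gap at day 14. Prodh1 alone was separate too and was picked with these values known, so the ratio is a description.

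The synthesis enzymes were lower or overlapped. Aldh18a1 (chr1:239375657-239407967, minus strand), which makes pyrroline-5-carboxylate from glutamate, had 12.9, 6.51 and 8.71 CPM in sorafenib day 14 replicates 5, 6 and 7, against 14.5, 17.5 and 12.9 CPM in water day 14 replicates 2, 3 and 7. Levels at day 28 were 9.26, 18.2 and 5.65 CPM in sorafenib replicates 2, 3 and 4, against 15.4, 12.3 and 15.1 CPM in water replicates 2, 3 and 4. Groups just overlapped at day 14, where the highest sorafenib and the lowest water library were nearly equal. Sorafenib replicate 3 of day 28, the highest value of all, rests on 22 counts in the shallow library, and the other libraries of that group lie below all water libraries. The log2 fold change was -0.67 ± 0.25 at day 14 and -0.56 ± 0.37 at day 28, or -0.92 without that library and -0.17 without sorafenib replicate 4.

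Pycr1 (chr10:105917732-105922658, minus strand), a mitochondrial enzyme of the last step to proline, had 2.12, 2.06 and 2.36 CPM in sorafenib day 14 replicates 5, 6 and 7, against 2.93, 3.70 and 3.34 CPM in water day 14 replicates 2, 3 and 7. These day 14 groups did not overlap, with a log2 fold change of -0.61 ± 0.26. By day 28 there were 3.26, 0.826 and 2.93 CPM in sorafenib replicates 2, 3 and 4, against 3.00, 1.82 and 2.74 CPM in water replicates 2, 3 and 4. Sorafenib replicate 3 held a single count there, the groups overlapped, and the log2 fold change was 0.14 ± 0.44. With single libraries left out it ranged from -0.08 to 0.30, and it was below 0 without sorafenib replicate 2 (-0.08) or water replicate 3 (-0.06). Its 2146 exon bases share 102 with the neighbour Myadml2, which was at 17.1 per kb against 1.21 for Pycr1, and reads from the shared bases cannot be told apart.

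Amt (chr8:108981620-108988127, plus strand), the aminomethyltransferase of glycine cleavage, was, like Prodh1, above water at both days. It had 33.6, 23.4 and 22.7 CPM in sorafenib replicates 5, 6 and 7 of day 14, against 12.1, 14.2 and 14.4 CPM in water replicates 2, 3 and 7. At day 28 the values were 25.8, 25.6 and 14.0 CPM in sorafenib replicates 2, 3 and 4, against 9.50, 10.3 and 6.94 CPM in water replicates 2, 3 and 4. No sorafenib library reached down to a water library of its day, and sorafenib replicate 4 of day 28 was as low as the water libraries of day 14. The log2 fold change was 0.97 ± 0.19 at day 14 and 1.29 ± 0.29 at day 28. Amt shares 1 exon base with Nicn1, the gene just upstream on the same strand, and strand was not used in counting. Nicn1 overlapped between groups at both days, with 68.6 ± 7.85 CPM in sorafenib and 54.5 ± 8.98 CPM in water at day 14, and with 66.8 ± 13.6 CPM in sorafenib and 71.8 ± 17.3 CPM in water at day 28 (SD, n = 3 each). The ratio of Amt to Nicn1 per kb averaged 0.377 ± 0.134 in sorafenib and 0.239 ± 0.0302 in water at day 14, and 0.328 ± 0.149 in sorafenib and 0.125 ± 0.0462 in water at day 28, again without overlap.

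Gcsh (chr19:45036013-45046770, minus strand), the lipoyl carrier of glycine cleavage, had 16.3, 29.7 and 32.0 CPM in sorafenib day 14 replicates 5, 6 and 7, against 35.6, 27.0 and 32.3 CPM in water day 14 replicates 2, 3 and 7. The day 28 values were 30.5, 21.5 and 31.7 CPM in sorafenib replicates 2, 3 and 4, against 33.6, 40.1 and 49.4 CPM in water replicates 2, 3 and 4. Day 14 groups overlapped and day 28 sorafenib libraries were all lower, by a small margin between 31.7 and 33.6 CPM. The log2 fold change was -0.28 ± 0.23 at day 14 and -0.48 ± 0.19 at day 28. At day 14 it was -0.03 without sorafenib replicate 5 and -0.46 without sorafenib replicate 7. The ratio of Amt to Gcsh per kb averaged 0.618 ± 0.395 in sorafenib and 0.228 ± 0.0488 in water at day 14, and 0.431 ± 0.195 in sorafenib and 0.118 ± 0.0396 in water at day 28 (SD, n = 3 each). This ratio did not overlap between the groups at either day for these transcripts of 1 complex. Amt alone did not overlap either and was picked with these values known, so its ratios to Gcsh and Nicn1 are a description.

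**Figure D2:**
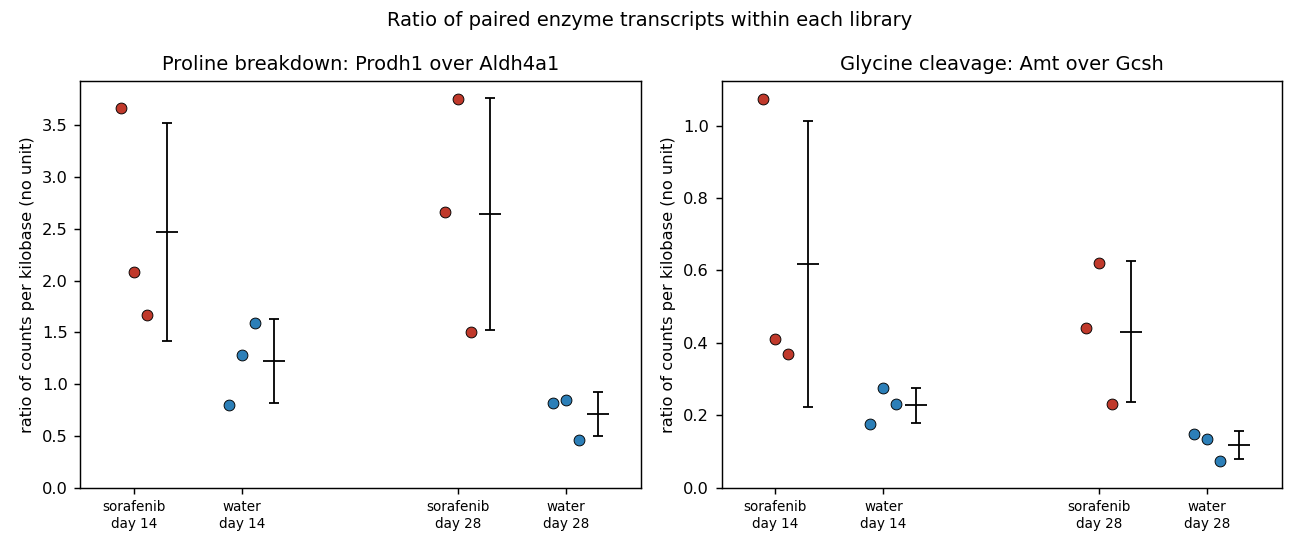
Ratio of counts per kilobase (y axis, no unit) of Prodh1 over Aldh4a1 on the left and of Amt over Gcsh on the right, in each library of the 4 groups; points are libraries, horizontal bars means and whiskers SD (n = 3). Sorafenib libraries lie above water libraries of their day in both panels, as at day 28 with means of 2.64 in sorafenib against 0.711 in water for Prodh1 over Aldh4a1.

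Aldh4a1 and Gcsh had their extreme levels where the cardiomyocyte markers had theirs. The summed level of these markers was lowest in sorafenib day 14 replicate 5, at 38970 CPM, the library lowest in both Aldh4a1 and Gcsh. It was highest in water day 28 replicate 4, at 92750 CPM, the library highest in both. By group the sum ranged from 38970 to 60940 CPM in sorafenib and 47680 to 59650 CPM in water at day 14, and from 45750 to 80630 CPM in sorafenib and 62450 to 92750 CPM in water at day 28. Amt went the opposite way, highest in sorafenib day 14 replicate 5 (33.6 CPM) and lowest in water day 28 replicate 4 (6.94 CPM). The ratio of Amt to Gcsh was likewise highest in the former (1.07) and lowest in the latter (0.0732). That of Prodh1 to Aldh4a1 was lowest in the latter (0.464) but highest in sorafenib day 28 replicate 3 (3.75). The part of the markers in the results for Aldh4a1, Gcsh, Amt and these ratios was not tested.

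Gldc (chr1:227883247-227962119, minus strand), the glycine decarboxylase, stood near the limit of counting. It had 11, 16 and 13 counts in sorafenib day 14 replicates 5, 6 and 7, against 13, 22 and 30 counts in water day 14 replicates 2, 3 and 7. Day 28 gave 18, 1 and 19 counts in sorafenib replicates 2, 3 and 4, against 11, 20 and 7 counts in water replicates 2, 3 and 4. In CPM the means were 0.789 ± 0.125 in sorafenib and 1.14 ± 0.468 in water at day 14, and 1.05 ± 0.219 in sorafenib and 0.618 ± 0.333 in water at day 28 (SD, n = 3 each). Groups overlapped at both days, with log2 fold changes of -0.52 ± 0.44 at day 14 and 0.86 ± 0.59 at day 28. These values rested on single libraries: the day 14 value was -0.18 without water replicate 7 and -0.79 without water replicate 2, and the day 28 value was 1.35 without water replicate 3 and 0.57 without water replicate 4.

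Cdo1 (chr18:39432473-39447253, minus strand), the cysteine dioxygenase, lay on opposite sides of water at the 2 days. At day 14 it had 2.90, 3.54 and 6.23 CPM in sorafenib replicates 5, 6 and 7, from 48, 62 and 103 counts, against 1.57, 1.12 and 1.72 CPM in water replicates 2, 3 and 7, from 30, 22 and 32 counts. At day 28 it had 1.46, 0 and 1.73 CPM in sorafenib replicates 2, 3 and 4, from 25, 0 and 26 counts, against 2.95, 3.15 and 3.17 CPM in water replicates 2, 3 and 4, from 60, 64 and 67 counts. Both days were free of overlap, and no overlap on opposite sides was seen in 0.319% of 18174 genes. A count of 0 in the shallow library allows up to 2.48 CPM, which is below the water libraries of day 28 but above the other sorafenib libraries. The log2 fold change was 1.52 ± 0.36 at day 14 and -1.12 ± 0.49 at day 28, or -0.95 without that library.

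In water Cdo1 averaged 3.09 ± 0.116 CPM at day 28 and 1.47 ± 0.317 CPM at day 14 (SD, n = 3 each). Other tissues rich in Cdo1 are fat and liver, and their markers were read beside it. The 10 adipocyte markers summed to 284 to 536 CPM in sorafenib and 272 to 390 CPM in water at day 14, and to 376 to 610 CPM in sorafenib and 450 to 515 CPM in water at day 28. Most of that sum came from Pnpla2, Lipe and Cidea, with means of 210, 117 and 102 CPM, and Cfd had 3.01. The other 6, Adipoq and Plin1 among them, were at no more than 0.850 CPM in any library. The median log2 fold change of the adipocyte markers tested was 0.22 at day 14 (2 of 4 below 0) and 0.04 at day 28 (2 of 5 below 0). The 10 hepatocyte markers summed to 38.9 to 61.3 CPM in sorafenib and 41.1 to 72.0 CPM in water at day 14, and to 39.6 to 62.8 CPM in sorafenib and 44.6 to 189 CPM in water at day 28. By library, the highest of these sums was in water day 28 replicate 4, whose Cdo1 level of 3.17 CPM was close to the 2.95 and 3.15 CPM of the other water libraries of that day. The median of the hepatocyte markers tested was 0.83 at day 14 (1 of 5 below 0) and -0.43 at day 28 (3 of 4 below 0), the same signs as Cdo1. The mean log2 level of all 10, relative to water of the day, overlapped between groups at both days. At day 14 it was 0.18 to 0.23 in sorafenib and -0.52 to 0.65 in water. At day 28 it was 2.37 in water replicate 4, -1.11 and -1.26 in water replicates 2 and 3, and -1.31 to -1.13 in sorafenib. Mesothelial markers summed to 26.2 to 68.5 CPM in sorafenib and 44.9 to 119 CPM in water at day 14, and to 32.6 to 50.4 CPM in sorafenib and 16.1 to 34.8 CPM in water at day 28. Wt1 led with a mean of 30.8 CPM, Muc16 reached 32.9, Msln 20.7 and Lrrn4 9.38 CPM, and the other 6 at most 5.83 CPM in any library. Their median was -1.78 at day 14 (8 of 8 tested below 0) and 2.33 at day 28 (1 of 4 below 0), the opposite signs to Cdo1. The part of these marker lists in the Cdo1 values was not tested.

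Of the 8 members, 2 (Prodh1 and Amt) had every sorafenib library above the water libraries of its day at both days, and 0 had them below at both days, where 2.46% and 3.36% of 18174 genes were. At day 14, 3 members (these and Cdo1) were wholly above, against 10.7% of 17406 genes, and 1 (Pycr1) wholly below, against 10.4%. At day 28, 2 were wholly above, against 10.1% of 17021 genes, and 2 (Gcsh and Cdo1) wholly below, against 11.9%. On the average of both days Prodh1 had a log2 fold change of 1.10 ± 0.15 and Amt of 1.10 ± 0.17. The members were picked with these contrasts known, and nothing is read from these shares.

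**Figure D3:**
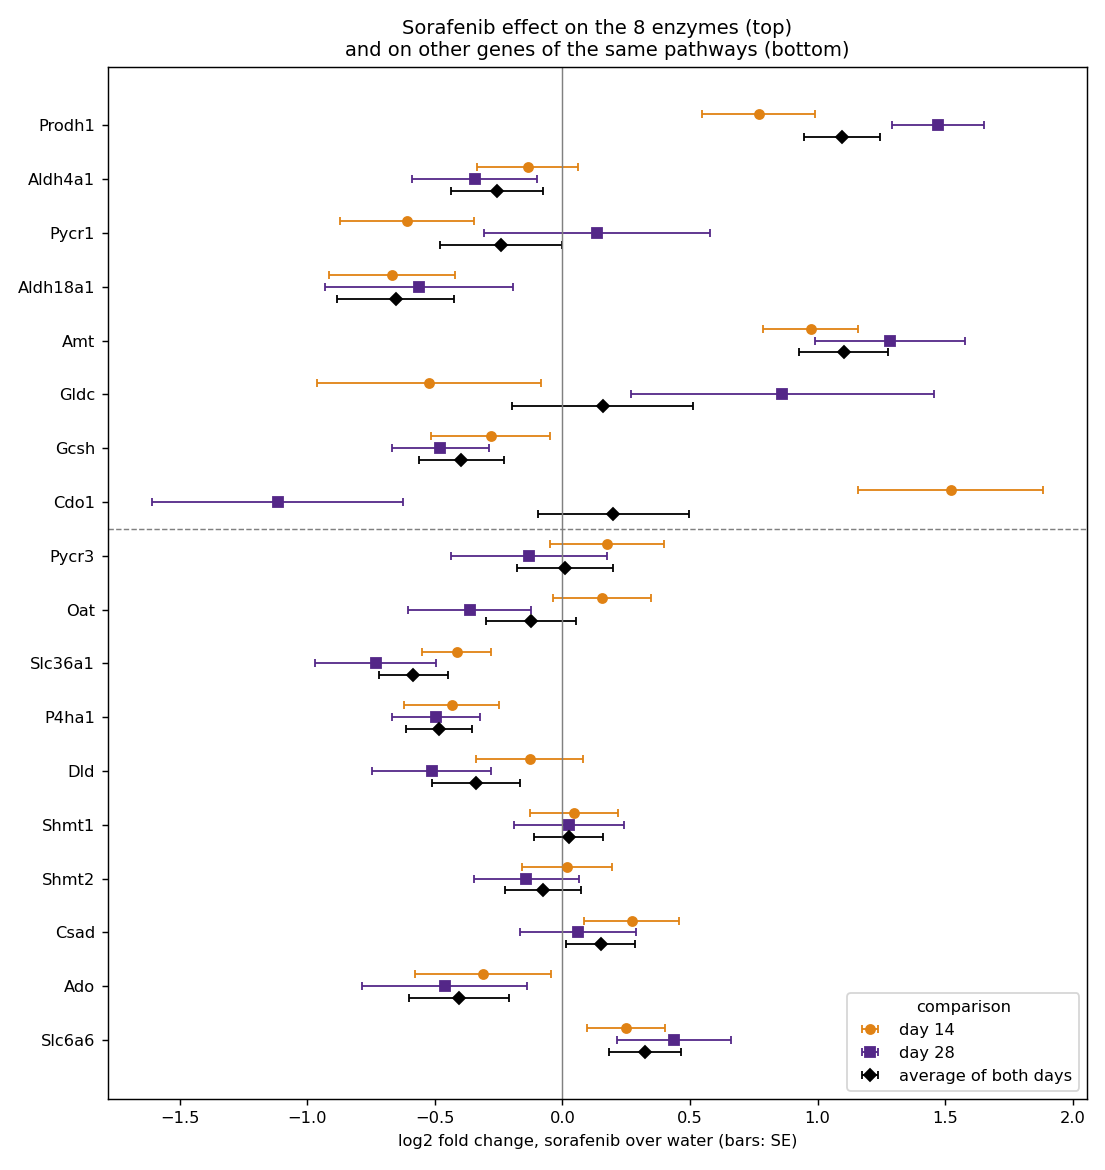
Log2 fold change, sorafenib over water (x axis), of the 8 enzymes above the dashed line and of 10 other genes of their pathways below it, at day 14 (circles), at day 28 (squares) and as the average of both days (diamonds), with SE as bars. Prodh1 and Amt lie near 1.10 on the average, and Cdo1 is at 1.52 at day 14 and -1.12 at day 28.

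The water groups were also compared between the days. These libraries are an arm of the sorafenib comparisons known when the members were chosen, so for the members this comparison is not independent of the choice. None of the 8 passed edgeR's quasi-likelihood test with Benjamini-Hochberg adjustment between water day 28 and water day 14, where 8.51% of 18174 genes did (5.8% higher and 2.7% lower). At an unadjusted p below 0.05 there were 2 (Cdo1 and Amt), where 4449 of the 18174 genes were, and DESeq2 called 0 of the 8. Cdo1 had a log2 difference of 1.07 ± 0.40 (day 28 over day 14, adjusted p = 0.116), and Amt had -0.61 ± 0.24 (adjusted p = 0.136). The other 6 ranged from -0.88 ± 0.48 for Gldc to 0.52 ± 0.25 for Aldh4a1, with Prodh1 at -0.34 ± 0.21 (adjusted p = 0.334). Day of treatment, age and separate counting of the tables cannot be told apart in this contrast.

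The other genes of the same pathways mostly did not pass the test with sorafenib. Of 116 other genes tested in 5 pathway lists, 5 passed on the average of both days (4.31%, against 4.41% of all genes), 1 higher and 4 lower (2.0% and 2.41% of all genes). Their median log2 fold change was -0.08, against -0.01 over all genes tested. Within day 14 and within day 28, 0 of 114 and 0 of 113 passed edgeR's test, as did 0.0% of all genes. At an unadjusted p below 0.05 there were 19 at each day, where 2440 of 17406 genes were at day 14 and 2531 of 17021 at day 28, and DESeq2 called 1 at day 14 and 3 at day 28. The difference of the sorafenib effect between the days passed for 0 of the 116 (0.0% of all genes), with 5 at an unadjusted p below 0.05, as were 803 of 18174 genes, and 0 by DESeq2. The count on the average depended on single libraries: 0 of these genes passed when sorafenib day 28 replicate 2 was left out, and 10 when replicate 4 of that group was. Leaving out sorafenib day 14 replicate 6 or water day 14 replicate 3 gave 1. The count was 2 without sorafenib day 14 replicate 7, water day 14 replicate 2 or water day 28 replicate 3 or 4, it was 3 without water day 14 replicate 7, and it was 4 without the shallow library.

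In the proline list, 2 of 19 other genes fell on the average and 0 rose, with a list median of -0.12. Slc36a1, a proton-coupled carrier of small amino acids that takes proline and glycine, was at 19.5 ± 1.48 CPM in sorafenib and 26.0 ± 1.62 CPM in water at day 14, and at 12.8 ± 5.36 CPM in sorafenib and 23.8 ± 0.277 CPM in water at day 28 (SD, n = 3 each). It was lower in 6 of 6 sorafenib libraries than in all water libraries of their day, with a log2 fold change of -0.58 ± 0.14 (adjusted p = 0.0348, edgeR). P4ha1, a subunit of collagen prolyl 4-hydroxylase, fell by 0.48 ± 0.13 on the log2 scale (adjusted p = 0.0488). It had 34.5 to 46.0 CPM in sorafenib and 40.2 to 61.6 CPM in water at day 14, and 21.5 to 31.3 CPM in sorafenib and 37.1 to 40.4 CPM in water at day 28. The calls were narrow: of 18 alternatives, 8 called Slc36a1 and 3 called P4ha1. Slc36a1 no longer passed when any 1 library was left out other than sorafenib day 28 replicates 3 and 4 and water day 28 replicate 2. P4ha1 was lost without any 1 library other than sorafenib day 14 replicate 5. The adjusted p of Slc36a1 was 0.00236 by DESeq2 and 0.0817 by edgeR without sorafenib day 28 replicate 2. Over the alternatives that of P4ha1 ranged from 0.0245 to 0.116.

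Enzymes that share a reaction with the members did not pass. The cytosolic pyrroline-5-carboxylate reductase Pycr3 had 4.22 per kb and a log2 fold change of 0.01 ± 0.19 on the average. Oat, which links ornithine to pyrroline-5-carboxylate, was abundant at 59.9 per kb, with -0.12 ± 0.18. Prodh2, an oxidase of hydroxyproline, had 0 to 6 counts per library and was not tested. Pycr3 thus exceeded the member Pycr1 per kb by level, 4.22 against 1.21.

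In the glycine and one-carbon list 0 of 30 other genes passed on the average by edgeR, with a median log2 fold change of -0.03, 11 at an unadjusted p below 0.05 and 4 by DESeq2 (Alas1, Aldh1l1, Gatm and Mtr). Dld had -0.34 ± 0.17. Shmt1 and Shmt2, which interconvert serine and glycine in cytosol and mitochondria, had 0.02 ± 0.13 and -0.08 ± 0.15. Gatm, which uses glycine for creatine synthesis, was closest to the threshold (-0.57 ± 0.17, adjusted p = 0.0705, edgeR). Aldh1l1, a folate enzyme, had 1.38 ± 0.43 (adjusted p = 0.0748), and Alas1, which uses glycine for haem, -0.64 ± 0.21 (adjusted p = 0.0889).

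In the cysteine and taurine list 0 of 23 other genes passed by edgeR and 0 by DESeq2, with 2 at an unadjusted p below 0.05 and a median of -0.10. Csad, which follows Cdo1 on the way to taurine, had 0.15 ± 0.13, and Ado, which makes hypotaurine from cysteamine, had -0.40 ± 0.20. The taurine carrier Slc6a6 had 194 ± 36.7 CPM in sorafenib and 146 ± 37.1 CPM in water at day 28, with an average log2 fold change of 0.32 ± 0.14 (adjusted p = 0.179). Mat2a, which makes S-adenosylmethionine and led this list at 152 per kb, had 0.38 ± 0.14 (adjusted p = 0.115). None of the 23 showed a detectable change between the days in its sorafenib effect (0 at an unadjusted p below 0.05, 0 by DESeq2).

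The list of the amino acid response driven by the transcription factor ATF4 holds Pycr1 and Aldh18a1 among its targets. Of its 26 other genes tested, 1 rose and 2 fell on the average, with a median of -0.10. Nupr1, a small stress-responsive nuclear protein, rose by 1.88 ± 0.36 on the log2 scale (adjusted p = 0.0185, edgeR), with 9.83 ± 2.14 CPM in sorafenib and 2.32 ± 1.45 CPM in water at day 28, and 2.40 ± 1.28 CPM in sorafenib and 0.746 ± 0.287 CPM in water at day 14 (SD, n = 3 each). Atf3, a stress-induced transcription factor, fell by 1.26 ± 0.25 (adjusted p = 0.0214), with 9.14 ± 3.33 CPM in sorafenib and 24.8 ± 3.85 CPM in water at day 28. Vldlr, a lipoprotein receptor, fell by 0.59 ± 0.16 (adjusted p = 0.0492). Of 18 alternatives, 16 called Atf3, 15 Nupr1 and 7 Vldlr. Atf3 was lost without sorafenib day 14 replicate 6 (adjusted p = 0.0525) or sorafenib day 28 replicate 2 (0.075), and Nupr1 without sorafenib day 28 replicate 2 (0.0556) or water day 14 replicate 3 (0.0524). Vldlr was lost without any 1 library other than sorafenib day 28 replicate 4 and water day 28 replicate 2. Atf4 itself had -0.28 ± 0.11 (adjusted p = 0.142) and Ddit3, a further stress factor, 0.02 ± 0.13.

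The 24 genes of branched-chain amino acid breakdown, a neighbouring mitochondrial pathway, had 0 calls on the average by edgeR, 3 at an unadjusted p below 0.05 and 1 by DESeq2 (Bckdhb). Their median log2 fold change was 0.00 at day 14 and -0.30 at day 28, with 22 of 24 below 0 at day 28. That of the cardiomyocyte markers was -0.20 at day 28, with 9 of 10 below 0, and its part was not tested. Bckdhb, a subunit of the branched-chain ketoacid dehydrogenase, had the smallest p of the list (-0.49 ± 0.17 on the average, adjusted p = 0.0979).

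**Figure D4:**
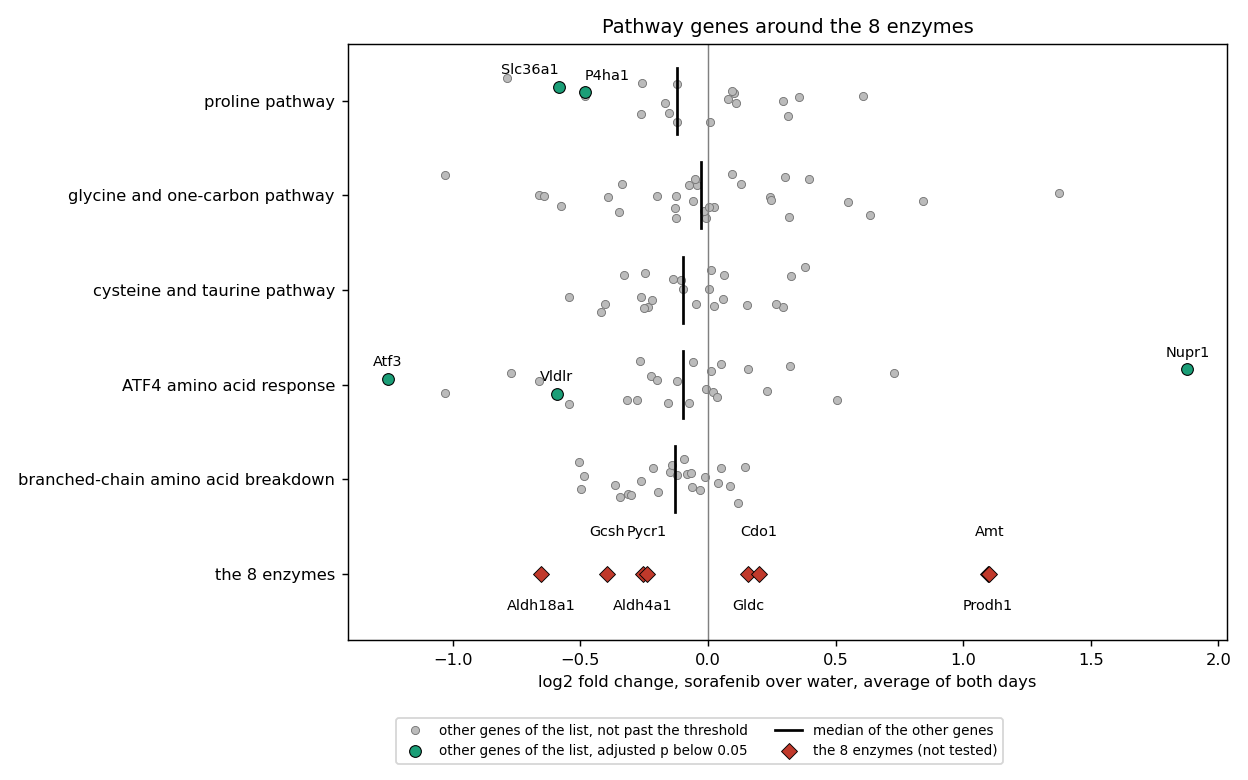
Log2 fold change, sorafenib over water, average of both days (x axis), of the other genes of 5 pathway lists (rows, spread vertically for legibility) and of the 8 enzymes (bottom row); green points passed an adjusted p of 0.05, and black bars are list medians. List medians lie between -0.13 and -0.03, and the 5 genes that passed are Nupr1 on the right and Atf3, Vldlr, Slc36a1 and P4ha1 on the left.

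Between the water groups, 14 of the 116 other genes passed (12.07%, against 8.51% of all genes), 13 higher and 1 lower at day 28 than at day 14. The ATF4 list held 9 of these, all higher (of 26 tested, median 0.43 against -0.04 over all genes): Cebpb by 2.72 ± 0.35, Ddit4 by 1.41 ± 0.26, Atf3 by 1.44 ± 0.33, Eif4ebp1 by 1.34 ± 0.19, Mthfd2 by 1.21 ± 0.20, Slc7a5 by 1.19 ± 0.31, Slc3a2 by 1.10 ± 0.32, Ddit3 by 0.71 ± 0.19 and Atf4 by 0.69 ± 0.15 on the log2 scale, with edgeR adjusted p from 0.00063 to 0.0493. Of 12 alternatives, all called Cebpb, Ddit4, Eif4ebp1 and Mthfd2, while 10 called Atf3, 9 Slc7a5, 8 Atf4, 6 Ddit3 and 3 Slc3a2. Atf3 had 24.8 ± 3.85 CPM in water day 28 and 9.12 ± 3.90 CPM in water day 14, so the water level it is set against was not the same at both days. Outside this list, Bckdha, Mcee and Auh of branched-chain breakdown rose by 1.39 ± 0.24, 1.11 ± 0.22 and 0.56 ± 0.16, and Ado by 0.94 ± 0.27. All 12 alternatives called Bckdha and Mcee, and 5 called Auh and 4 Ado. The count was 6 without water day 14 replicate 2 or 3, 7 without water day 28 replicate 3 and 8 without water day 28 replicate 4.

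Genes whose log2 CPM followed each member most closely over the 12 libraries were ranked by Pearson correlation among 10719 genes, as a description over libraries that share treatment, day and depth. Prodh1 was followed by Lsr (0.931), Mpnd (0.926) and Adck1 (0.917). Amt was followed by Cep95 (0.97), Rbm12b (0.954) and Rsrp1 (0.946), whose average log2 fold changes were 0.69, 0.64 and 0.55. The genes nearest to Aldh4a1 included Vcp (0.983) and myoglobin, Mb (0.979). Gcsh was followed by Uqcc1 (0.973), Egln1 (0.967) and Banf1 (0.963). Prodh1 and Aldh4a1 shared none of their nearest genes. Only the 3 nearest genes were kept per member, so nothing is read from that. Aldh18a1 was followed by Cap1 (0.954), Slc9a9 (0.924) and Fbn1 (0.922), and Gldc by Trim37 (0.856), Arhgap26 (0.846) and Ptbp2 (0.837). Cdo1 was followed by Thap7, Ribc1 and Srp9 at 0.968, 0.956 and 0.925, and Pycr1 by Gpr89b, Vangl2 and Abo at 0.919, 0.91 and 0.902. Without the shallow library these last values dropped to 0.846, 0.776 and 0.69 for Cdo1 and to 0.72, 0.659 and 0.792 for Pycr1, so they rest in part on it.

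Myeloid markers were lower with sorafenib on the average of both days, while their sums overlapped between the groups at each day. All 10 had a log2 fold change below 0 on the average, with a median of -0.73. Of them 3 passed edgeR's test as lower, where 2.41% of all genes did. Their sum was 93.9 to 226 CPM in sorafenib and 191 to 361 CPM in water at day 14, and 106 to 328 CPM in sorafenib and 245 to 387 CPM in water at day 28. Other cell type lists had calls on the average too. Lower were 2 endothelial, 1 fibroblast and 1 smooth muscle and pericyte marker, and higher were 1 cardiomyocyte and 1 hepatocyte marker. The part of these shifts in the values of the 8 enzymes was not tested.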

How the data were processed

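Total heart RNA was sequenced after removal of ribosomal RNA, 12 libraries in all, per the labels' protocols. Raw read counts per gene were deposited, which the authors made with featureCounts 2.0.1 and a RefSeq gene annotation of mRatBN7.2, in paired mode and without strand, per the file headers. STAR is named, with no version, in the submitters' processing notes. Reads of genes that overlap cannot be assigned by strand. A pair of day 14 columns (2) that match no sample was not used.

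Genes were tested by edgeR 4.0.16 under R 4.3.3 (quasi-likelihood test, robust dispersion, filterByExpr, TMM) over all genes, with Benjamini-Hochberg adjusted p below 0.05 as threshold. Days were fitted separately. The average of both days, the change between days and the water comparison come from a fit of all 4 groups. SE was derived from the log2 fold change and its F statistic. CPM are scaled by TMM over all 12 libraries, and per kb values use summed exon length. A floor is 3 counts, for counting error only. As alternatives served DESeq2 1.42.0, RLE factors, no filter or a filter of 1 CPM in 3 libraries, non-robust dispersion, a joint fit for each day, a replicate block and each library left out.

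The members, the lists and the rule for named genes were chosen with earlier results of these data known. The rule names the members and their partner enzymes, per list the genes past the threshold (up to 8 by p) or else the 3 of smallest p, the 3 highest per kb, and the 3 genes most correlated with each member at a mean of 5 CPM or more. Of these, the text gives those the results turn on. Some genes that the rule names are not reported here. Sequences of the assembly were numbered as chromosomes in file order, and 99.8% of 27158 symbols placed in both lie on the same chromosome in GRCr8, used otherwise only for promoters. No replicate pair agreed within sampling noise (chi-square per gene of at least 8.068). Scripts were tested on simulated data.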

Additional observations from a re-analysis of the deposited data

Results flagged for a closer look

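Cdo1 lay on opposite sides of water at the 2 days. Every sorafenib library of day 14 lay above the water mean of its day, and every sorafenib library of day 28 below that of its day. Its sorafenib effect at day 28 minus that at day 14 was -2.6333 on the log2 scale. For this change edgeR called 0 of 18174 genes, with 803 at an unadjusted p below 0.05, and DESeq2 called 9, Cdo1 among them. The gene was chosen with these values known, so neither is a test of it.

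Gldc lay the opposite way. Every sorafenib library was below the water mean at day 14 and above it at day 28, and the effect at day 28 minus that at day 14 was 1.3676 on the log2 scale. It was 1.86 without water day 28 replicate 3 and lay between 1.04 and 1.64 without each of the other libraries. The replicate block gave 2.15, where the day 14 effect rests on replicate 7 of each group. Gldc rests on 1 to 30 counts per library, neither edgeR nor DESeq2 called it, and this gene too was chosen with its values known.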

How the results depend on the processing

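Prodh1 and Amt kept a positive log2 fold change in all alternatives run, from 0.78 to 1.24 for Prodh1 and from 0.95 to 1.24 for Amt on the average of both days, the lowest with the replicate block. Both were picked with these contrasts known and did not overlap at either day, so the kept sign is a description. Counts of genes called moved with the setting, and the cause was not tested. DESeq2 called 426 genes at day 14, 270 at day 28, 1822 on the average, 9 for the change between days and 2324 between the water groups, against 0, 0, 801, 0 and 1546 with edgeR. For the pathway lists it called 1, 3, 12 and 22 genes at day 14, at day 28, on the average and between the water groups. Without the filter, 87 genes (1 of the lists) passed at day 14 and 82 (2 of the lists) at day 28. In the fit of all 4 groups 4 passed at day 14 and 53 at day 28.

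Leaving out single libraries gave 0 to 27 genes at day 14, 0 to 3 at day 28, 35 to 1562 on the average, 0 to 1 for the change and 558 to 1329 between the water groups. For the lists it gave 0 to 0 at either day and for the change, 0 to 10 on the average and 6 to 12 between the water groups. The average fell to 35 genes without sorafenib day 28 replicate 2, 60 without water day 14 replicate 3, and 180 to 510 without each of 7 other libraries, was 707 and 775 without sorafenib day 28 replicate 3 and water day 28 replicate 2, and was 1562 without sorafenib day 28 replicate 4.

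Replicate numbers are shared by the day 28 groups. Same-numbered libraries deviated from their group means with correlations of 0.115, 0.002 and 0.163. Sorafenib replicates 2 and 4 each went best with the water library of their own number. The shallow sorafenib replicate 3 had correlations of only -0.027 to 0.033 with the water libraries, highest with water replicate 2. Whether the numbers mark pairs is therefore not settled, and the main fits did not take them as pairs. With the replicate block 108 genes passed at day 28 (1 of the lists), 38 on the average (1 of the lists) and 1024 between the water groups. On the average the block gave adjusted p of 0.086 for Nupr1, 0.152 for Vldlr, 0.219 for Slc36a1 and 0.113 for P4ha1. At day 14 the groups share 1 number, and no block was fitted for that day alone. In the fits of all 4 groups the block went by number over both days. It tied water day 14 replicates 2 and 3 to the day 28 libraries of the same numbers. The day 14 effect, which enters the average, rests there on replicate 7 of each group. Whether a number shared between the days marks a pair was not tested. Depth limits Gldc, Pycr1 and Cdo1, for which the shallow library holds 1, 1 and 0 counts. DESeq2 gave no adjusted p for Aldh1l1 at day 14.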
